A study of Mus musculus with 18 samples.

Results

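The comparison set cultured aortic smooth muscle cells given TGF-β directly against the same kind of cells given PDGF-BB. Its members were the 6 libraries of scramble siRNA cells that received 1 of these growth factors, 3 libraries with TGF-β and 3 with PDGF-BB, of 18 libraries in the series. Both treatments were given to cells that carried a scramble siRNA, meant to target no gene, so it was shared and was not itself compared. Across these libraries 15832 of the 57180 genes in the deposited table carried enough counts to be tested. The cells were smooth muscle cells grown from the thoracic aorta of C57BL/6 mice, and the series asked about integrin αV, encoded by Itgav, in aortic aneurysm and dissection. The remaining 12 libraries were unstimulated scramble cells and Itgav siRNA cells with TGF-β, with PDGF-BB or unstimulated. No source used here gives the age of the mice, the doses or the lengths of treatment, and the cells were grown in culture, apart from the wall's other layers, flow and stretch.

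TGF-β signals through a pair of serine-threonine kinase receptors to SMAD transcription factors, and in smooth muscle it is known for driving contractile proteins and matrix. PDGF-BB binds the receptor tyrosine kinase encoded by Pdgfrb and signals through RAS and ERK, and it is known for driving division, migration and the loss of contractile proteins. Smooth muscle cells of the aorta move between these states, and the mature wall relies on the contractile, elastin-making one.

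The 6 libraries held 18339304 to 20689916 estimated counts each. A principal component analysis of the 6 put 72.8% of the variance on a first component that separated the TGF-β libraries (-56 to -52.2) from the PDGF-BB libraries (50.6 to 60.3). A second component with 9.58% set PDGF-BB replicate 1 (-37) apart from the other PDGF-BB libraries (23.2 and 17.3). Whether the 3 libraries of a treatment came from separate cultures is not stated, so each p-value reflects only library-to-library spread, possibly technical. In what follows CPM is the gene's count scaled to a common library size, a ± after CPM is an SD over 3 libraries, and a ± after a log2 fold change (TGF-β over PDGF-BB) is its standard error. A value in parentheses after a gene name is its log2 fold change. A gene was called when edgeR's quasi-likelihood test gave a Benjamini-Hochberg adjusted p under 0.05 over all genes tested. By that rule 9014 genes, 56.9% of those tested, were called, with 4427 (28.0%) higher with TGF-β and 4587 (29.0%) lower. The median log2 fold change of all genes was -0.02, and in 58.7% of genes the 3 libraries of one treatment all lay above the 3 of the other. At least 2-fold differences were called in 1109 genes higher with TGF-β (7.00%) and 1314 lower (8.30%), and at least 8-fold differences in 175 genes higher and 172 lower. Because these are bulk samples, fewer cells of a kind and less RNA per cell cannot be told apart.

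**Figure D1:**
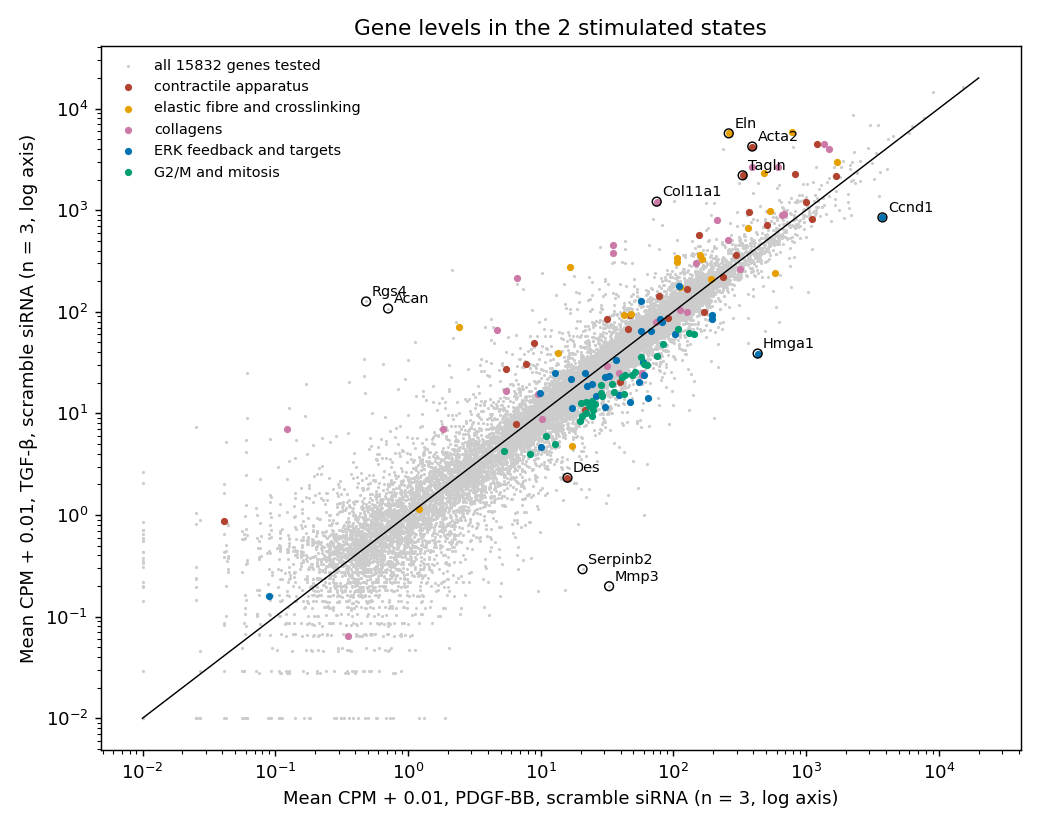
Mean CPM per gene (plus 0.01, log axes) in TGF-β cells (vertical) against PDGF-BB cells (horizontal), 3 libraries each, for the 15832 genes tested, with 5 gene lists coloured and the line of equal level drawn. Eln, Acta2 and Col11a1 lie far above the line, Hmga1, Ccnd1 and Mmp3 far below it, and the G2/M genes all lie below it.

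The genes that stood farthest apart towards TGF-β encoded signalling, matrix and secreted proteins. Rgs4, a GTPase-activating protein that shuts off Gq and Gi signals, had 128, 118 and 132 CPM in the TGF-β libraries, against 0.454, 0.412 and 0.555 CPM in the PDGF-BB libraries. Every TGF-β library stood far above every PDGF-BB library, where no value reached 1 CPM, and the log2 fold change was 8.03 ± 0.14 (adjusted p = 1.64e-21 by edgeR's quasi-likelihood test). C1qtnf3, a secreted C1q and TNF related protein, had 256, 272 and 241 CPM in the TGF-β libraries, against 1.77, 2.42 and 2.27 CPM in the PDGF-BB libraries, and the treatments did not overlap (log2 fold change 6.89). Ptprz1, a receptor phosphatase, averaged 131 ± 8.81 CPM with TGF-β and 1.04 ± 0.557 CPM with PDGF-BB (log2 fold change 6.95). Acan, which encodes aggrecan, the large chondroitin sulfate proteoglycan of cartilage, had 110.1, 114 and 98.5 CPM with TGF-β and 0.454, 0.669 and 0.971 CPM with PDGF-BB. In the PDGF-BB libraries Acan stayed under 1 CPM in all 3, and its log2 fold change was 7.24 ± 0.21. Frmpd1 averaged 19.5 ± 1.59 CPM with TGF-β and 0.162 ± 0.0648 CPM with PDGF-BB (log2 fold change 6.84) and Fxyd6, a regulator of the sodium pump, 11.4 ± 0.826 CPM with TGF-β and 0.117 ± 0.0788 CPM with PDGF-BB (6.55). Prl3a1 (prolactin family) held 1340 counts over the TGF-β libraries and 3 over the PDGF-BB libraries, a depth-scaled ratio of 459 with a 95% exact counting interval of 157 to 2230. Adamtsl2, which encodes a fibrillin-binding matrix protein, held 391 counts with TGF-β and 1 with PDGF-BB (ratio 402, interval 71.7 to 15900). Sost, the WNT inhibitor sclerostin, held 292 counts with TGF-β and 3 with PDGF-BB (ratio 100, interval 33.9 to 488), and Atp13a5 279 with TGF-β and 2 with PDGF-BB (ratio 143, interval 39.3 to 1190). These intervals cover counting error only.

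The genes farthest towards PDGF-BB encoded a protease, a protease inhibitor and several enzymes and secreted proteins. Mmp3, the matrix-degrading protease stromelysin, had 0.348, 0.161 and 0.0579 CPM in the TGF-β libraries, against 34.5, 28.9 and 35.01 CPM in the PDGF-BB libraries. No TGF-β library reached 0.4 CPM, and Mmp3 was 169-fold lower with TGF-β (log2 fold change -7.40 ± 0.30, adjusted p = 2.87e-15 by edgeR's quasi-likelihood test). Serpinb2, plasminogen activator inhibitor 2, had 0.406, 0.269 and 0.174 CPM with TGF-β and 18.9, 21.2 and 21.97 CPM with PDGF-BB (log2 fold change -6.16). Akr1c18, a hydroxysteroid dehydrogenase that inactivates progesterone, had 0.986, 0.86 and 1.1 CPM with TGF-β and 57.9, 61.8 and 60.4 CPM with PDGF-BB, and the treatments were far apart in every library (log2 fold change -5.93). Aldh3a1, an aldehyde dehydrogenase, averaged 1.82 ± 0.633 CPM with TGF-β and 53.7 ± 4.38 CPM with PDGF-BB (log2 fold change -4.89). A further 5 were Nptx1, a neuronal pentraxin (log2 fold change -5.75), the growth factor pleiotrophin gene Ptn (-4.58), the hormone gene Stc1 (-4.56), Lrrn3 (-4.56) and Scara5, a ferritin receptor (-4.54). Each of these 5 stayed under 2 CPM in every TGF-β library. Hmga1, Akr1c18, Ly6a, Ly6c1, Gstm1 and Prl3a1 have close relatives or copies in the genome, so reads may have been divided among them.

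**Figure D2:**
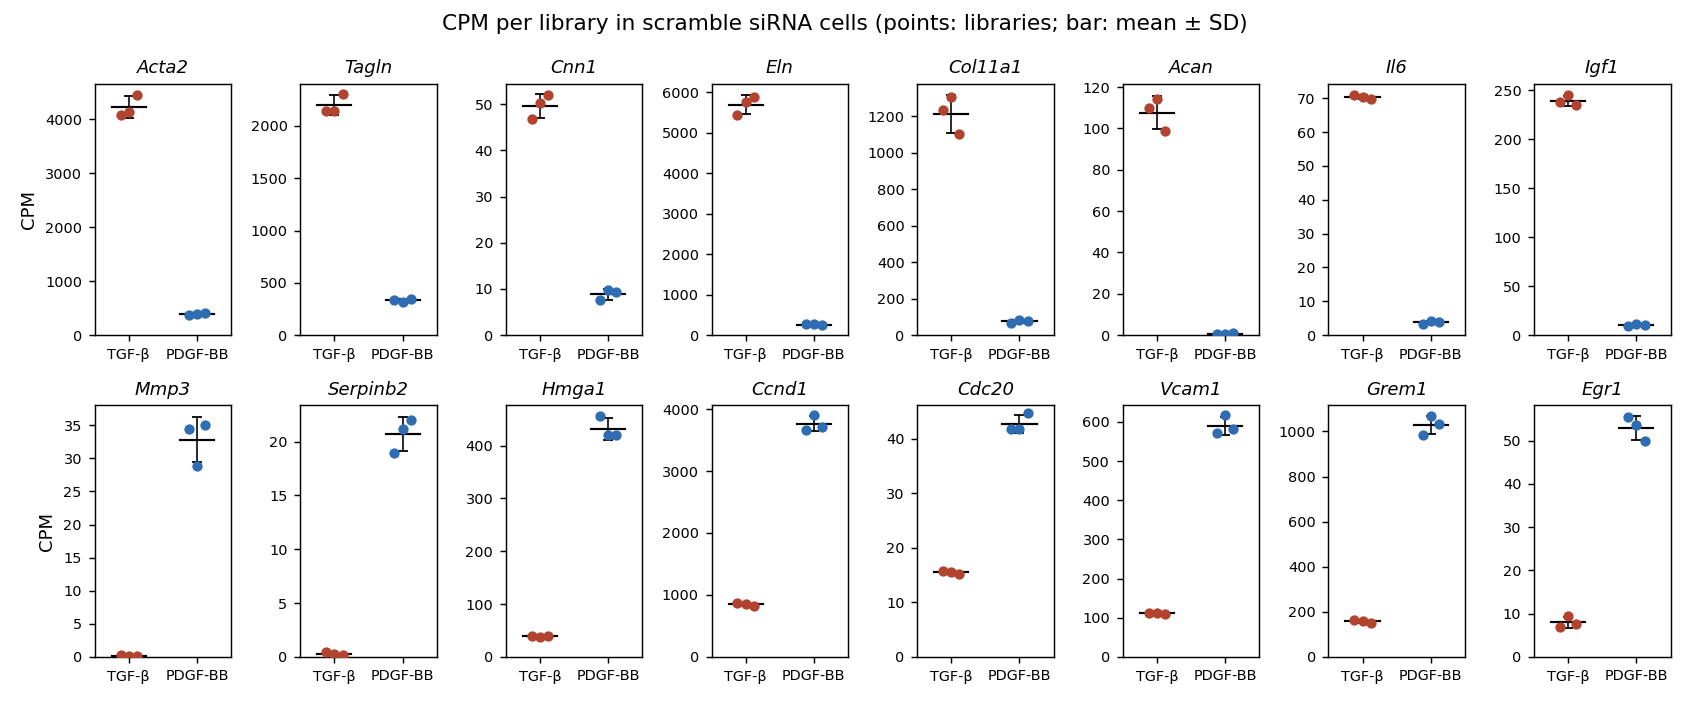
CPM in each library (points) with mean ± SD (bars) for 16 genes, TGF-β left and PDGF-BB right in each panel, on linear axes from 0. In the upper row, such as Acta2, Eln and Il6, all 3 TGF-β libraries lie above all 3 PDGF-BB libraries. In the lower row, such as Mmp3, Ccnd1 and Egr1, all 3 TGF-β libraries lie below them.

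The contractile genes were mostly higher with TGF-β, and among the higher genes at 5 CPM or more actin and its binding proteins had the largest differences. Acta2, smooth muscle α-actin and the main actin of the contractile filaments (chromosome 19, 34241090 to 34255590, minus strand, GRCm38), had 4079, 4145 and 4458 CPM in the TGF-β libraries, against 379, 397 and 403 CPM in the PDGF-BB libraries. No library of one treatment came near the other, and Acta2 was 10.8-fold higher with TGF-β (log2 fold change 3.43 ± 0.045, adjusted p = 2.87e-23 by edgeR's quasi-likelihood test). Tagln, the actin-binding protein SM22α, had 2148, 2147 and 2306 CPM with TGF-β and 336, 320.4 and 343 CPM with PDGF-BB (log2 fold change 2.72 ± 0.058). Cnn1, calponin, averaged 49.7 ± 2.56 CPM with TGF-β and 8.83 ± 1.16 CPM with PDGF-BB (log2 fold change 2.49 ± 0.13), and the γ-actin gene Actg2 27.1 CPM with TGF-β and 5.45 CPM with PDGF-BB (2.31). Myh11, the smooth muscle myosin heavy chain, had 28.8, 31.8 and 31.6 CPM with TGF-β and 7.63, 9.47 and 6.24 CPM with PDGF-BB (log2 fold change 1.99 ± 0.12), a smaller difference than that of Acta2. Cald1, caldesmon, averaged 4493 CPM with TGF-β and 1200.1 CPM with PDGF-BB (log2 fold change 1.90).

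Of the contractile list, 19 of the 27 genes tested were higher with TGF-β (70.4%), 5 were lower (18.5%) and 3 were not called, at a median log2 fold change of 0.58, against 28.0% higher and 29.0% lower over all genes tested, the background for every list. All lists named here were chosen with earlier results of these data known, so their counts are descriptions. The 5 lower genes were Des, Synm, Mylk, Sorbs3 and Cav1. Des, the intermediate filament desmin and itself a marker of differentiated smooth muscle, had 1.74, 3.01 and 2.2 CPM in the TGF-β libraries, against 17.3, 15.6 and 14.8 CPM in the PDGF-BB libraries. Desmin thus ran against actin in every library (log2 fold change -2.77 ± 0.15). Mylk, the kinase that phosphorylates the myosin light chain to start contraction, had 20.2, 20.9 and 19.7 CPM with TGF-β and 38.3, 42.8 and 37.8 CPM with PDGF-BB (log2 fold change -0.97 ± 0.067). Tpm2 (log2 fold change -0.09), Ppp1r14a (0.26) and Ppp1r12b (-0.08) were not called. Together the listed genes made up 2.11 ± 0.029% of all counts with TGF-β and 0.882 ± 0.0209% with PDGF-BB.

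RefSeq promoter windows (GRCm38.p6, 250 bases before to 50 after a start) were matched by symbol for 11216 of the 15832 genes tested. The CArG box, the site read by serum response factor in contractile genes, was searched in its strict form on both strands, and it lay in 1.56% of these genes' windows. Of the 22 contractile genes with a window, 3 held it (13.6%), namely Myl6, Myl9 and Vcl. Myl9, the regulatory light chain, averaged 569.6 ± 81.1 CPM with TGF-β and 157 ± 16.4 CPM with PDGF-BB (log2 fold change 1.86), and its 120 bases at chr2:156775264-156775383 on the plus strand are shown because they hold the motif, in capitals, at positions -161 to -152 from the start.
Myl9: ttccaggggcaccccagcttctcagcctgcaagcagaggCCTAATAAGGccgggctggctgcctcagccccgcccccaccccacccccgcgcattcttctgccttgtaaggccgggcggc
Over the 32851 windows of the table, CArG and CCAAT matches overlapped in 75, TGANTCA overlapped CCAAT in 23 and TTTGAA in 69, TGATGNAAN overlapped CCAAT in 10, and CCAAT overlapped TTTGAA in 47. The window of Acta2 held no strict CArG box, which says only that these letters are not in it. A match is a description of the sequence and not evidence of binding.

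Among regulators of the smooth muscle state, 10 of 20 were higher and 6 lower with TGF-β, at a median log2 fold change of 0.14. The Notch effector Hey2 averaged 29.4 ± 0.762 CPM with TGF-β and 6.66 ± 0.396 CPM with PDGF-BB (log2 fold change 2.14), and the forkhead factors Foxo1 (1.43) and Foxc2 (1.10) and the T-box factor Tbx18 (1.35) were higher too. Twist1 (log2 fold change -0.97), Prrx1 (-0.73) and Snai2 (-0.63), factors of mesenchymal and migrating cells, were lower with TGF-β. Klf4, a factor known for suppressing contractile genes, had 73.1, 78.3 and 73.1 CPM with TGF-β and 91.9, 96.8 and 88.9 CPM with PDGF-BB. The treatments did not overlap for Klf4, but the difference was only 1.24-fold lower with TGF-β (log2 fold change -0.31 ± 0.046). Srf, serum response factor (log2 fold change 0.18), and its cofactor gene Myocd, myocardin (0.74), were called higher, and the cofactor genes Mrtfa (0.00) and Mrtfb (-0.10) were not called. The call of Srf was lost without TGF-β replicate 1 or PDGF-BB replicate 1 (edgeR's adjusted p 0.104 and 0.0687). It was also lost without a filter on low counts and with the 6 libraries alone (edgeR's adjusted p 0.144 and 0.0632). DESeq2 did not call Srf either (DESeq2's adjusted p 0.0588).

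Markers given for modulated smooth muscle, the dedifferentiated cells of injured and atherosclerotic vessels, were mostly lower with TGF-β. Of them 5 of the 18 genes tested were higher with TGF-β (27.8%), 12 were lower (66.7%) and 1 was not called, at a median log2 fold change of -0.70. Ly6a, the stem cell antigen Sca1, had 63.7, 64.4 and 67.8 CPM in the TGF-β libraries, against 481, 485 and 497 CPM in the PDGF-BB libraries (log2 fold change -2.90 ± 0.08). Vcam1, an adhesion molecule for leukocytes, had 112, 112 and 109 CPM with TGF-β and 571, 617 and 581 CPM with PDGF-BB (log2 fold change -2.41 ± 0.049). For both genes every TGF-β library lay far below every PDGF-BB library. Ly6c1 averaged 7.58 ± 1.59 CPM with TGF-β and 65.5 ± 1.98 CPM with PDGF-BB (log2 fold change -3.12), Lgals3, galectin-3, 16.5 ± 1.73 CPM with TGF-β and 98.1 ± 5.83 CPM with PDGF-BB (-2.57), and Mgp, the calcification inhibitor matrix Gla protein, 340.2 CPM with TGF-β and 749 CPM with PDGF-BB (-1.14). Spp1, osteopontin, had 242, 206 and 243 CPM with TGF-β and 621, 578 and 695 CPM with PDGF-BB (log2 fold change -1.45 ± 0.069). Genes of the list that were higher with TGF-β included Tnfrsf11b, the decoy receptor osteoprotegerin, at 438 ± 39.7 CPM with TGF-β and 27.96 ± 1.95 CPM with PDGF-BB (log2 fold change 3.97), and Thbs2, thrombospondin 2, at 312 ± 32.4 CPM with TGF-β and 40.96 ± 6.42 CPM with PDGF-BB (2.93).

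**Figure D3:**
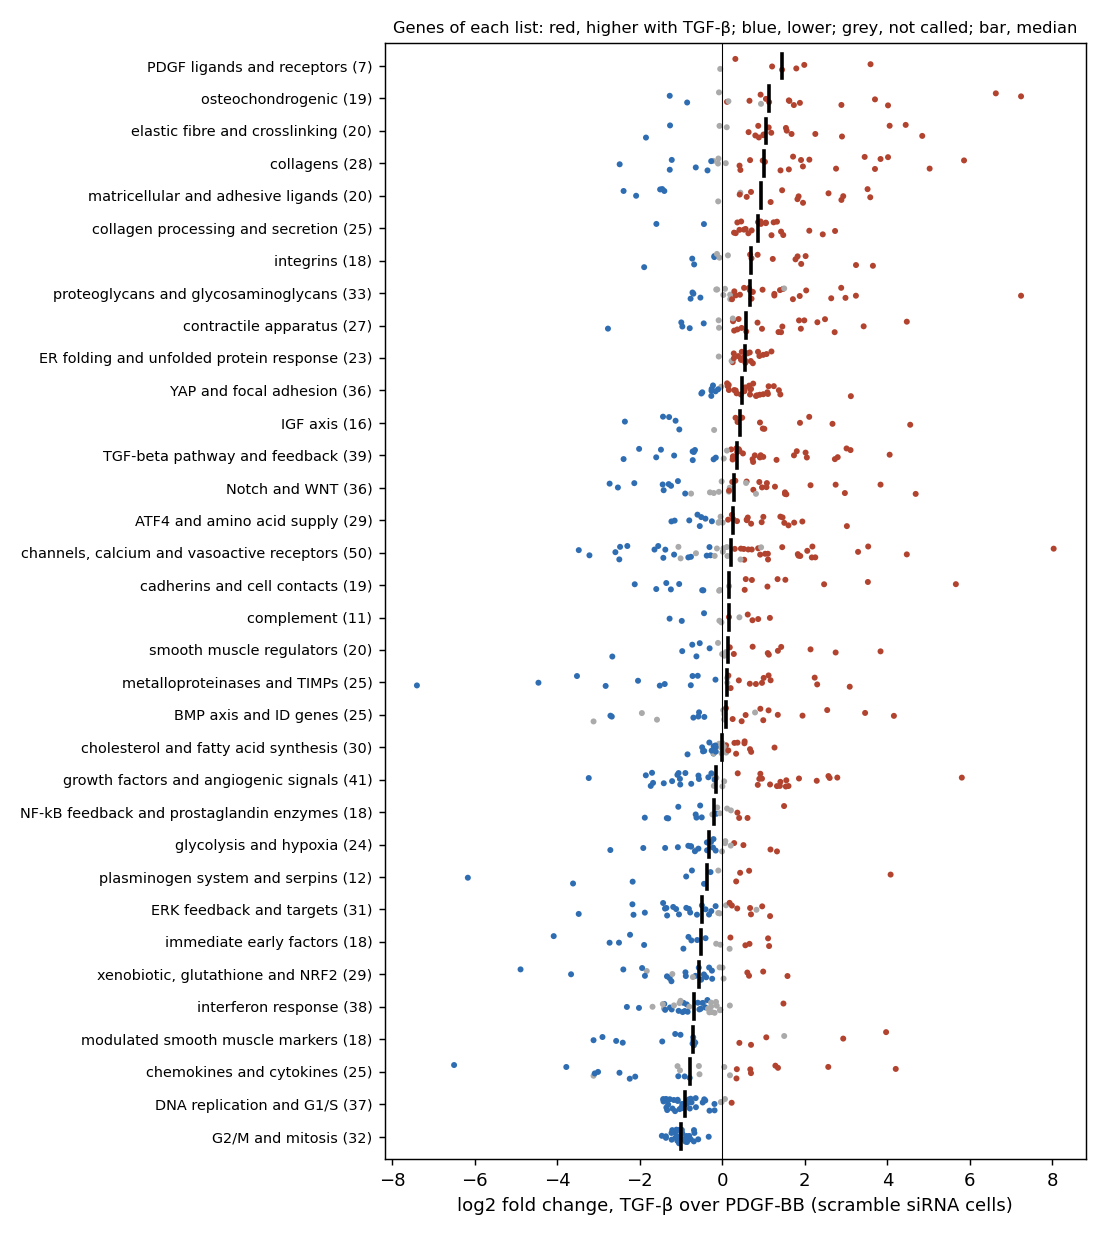
Log2 fold change of TGF-β over PDGF-BB for every tested gene (points) of 34 lists, ordered by the list's median (black bar), with the number of genes tested in brackets. Red points were called higher with TGF-β, blue points lower and grey points not called. The G2/M list has a median of -0.99 with every gene below 0, and the elastic fibre list a median of 1.07.

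Genes of elastic fibres, which give the aorta its recoil, were mostly higher with TGF-β. Eln, which encodes elastin (chromosome 5, 134702593 to 134747323, minus strand, GRCm38), had 5435, 5764 and 5892 CPM in the TGF-β libraries, against 267, 266 and 252 CPM in the PDGF-BB libraries. All 3 TGF-β libraries lay far above all 3 PDGF-BB libraries, and Eln was 21.8-fold higher with TGF-β (log2 fold change 4.44 ± 0.056, adjusted p = 2.87e-23 by edgeR's quasi-likelihood test). Of the list, 16 of the 20 genes tested were higher with TGF-β (80%), 2 were lower (10%) and 2 were not called, at a median log2 fold change of 1.07. The microfibril gene Mfap4 averaged 70.5 ± 6.23 CPM with TGF-β and 2.43 ± 0.666 CPM with PDGF-BB (log2 fold change 4.85), and Fbln5, a fibulin needed for elastin assembly, 2298 ± 77.2 CPM with TGF-β and 481 ± 26.6 CPM with PDGF-BB (2.26). Ltbp2, which binds fibrillin, averaged 278 ± 10.6 CPM with TGF-β and 16.7 ± 1.69 CPM with PDGF-BB (log2 fold change 4.06). All 5 crosslinking enzymes of the list were called higher, led by Lox, the lysyl oxidase that crosslinks elastin and collagen, with 5836, 6175 and 5637 CPM with TGF-β and 688, 869 and 806 CPM with PDGF-BB (log2 fold change 2.90 ± 0.069). Loxl3 averaged 341 CPM with TGF-β and 107 CPM with PDGF-BB (log2 fold change 1.68). The exceptions were Fbln1, at 4.8 CPM with TGF-β and 17.3 CPM with PDGF-BB (log2 fold change -1.85), and Efemp1, fibulin-3, at 243 CPM with TGF-β and 585 CPM with PDGF-BB (-1.26). Together the listed genes made up 2.11 ± 0.0666% of all counts with TGF-β and 0.571 ± 0.0164% with PDGF-BB.

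Collagen genes were mostly higher with TGF-β, in the fibrillar class (8 of 10 genes) and in the basement membrane class (5 of 8). Of the collagens, 18 of the 28 genes tested were higher with TGF-β (64.3%), 6 were lower (21.4%) and 4 were not called, at a median log2 fold change of 1.01. Col1a1, the main chain of type I collagen, had 4487, 4877 and 4193 CPM in the TGF-β libraries, against 1309, 1481 and 1336 CPM in the PDGF-BB libraries (log2 fold change 1.72 ± 0.059). The larger differences were in minor chains: Col11a1 had 1233, 1306 and 1100.4 CPM with TGF-β and 67.3, 80.7 and 76.9 CPM with PDGF-BB (log2 fold change 4.02 ± 0.072), and Col2a1, the cartilage collagen, averaged 457 ± 27.7 CPM with TGF-β and 35.1 ± 1.71 CPM with PDGF-BB (3.70). Among basement membrane chains, Col4a3 had 218, 247 and 184 CPM with TGF-β and 6.36, 6.49 and 7.03 CPM with PDGF-BB (log2 fold change 5.02 ± 0.12) and Col4a4 averaged 66.9 ± 6.48 CPM with TGF-β and 4.68 ± 0.187 CPM with PDGF-BB (3.84). Both encode chains of the type IV network known from kidney glomeruli. Col12a1 (log2 fold change 3.45) and Col8a2 (5.86) were higher as well, the last at 7.04 CPM with TGF-β and 0.112 CPM with PDGF-BB. The 6 lower genes included Col15a1 (log2 fold change -1.27), Col18a1 (-1.22), Col4a6 (-0.64), Col6a1 (-0.27) and Col6a2 (-0.36), which are basement membrane or beaded filament chains. The sixth was the fibrillar chain gene Col24a1, barely detected at 0.0552 CPM with TGF-β and 0.346 CPM with PDGF-BB (log2 fold change -2.49), and its call was lost without TGF-β replicate 3 (edgeR's adjusted p 0.0714).

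Genes of the machinery that modifies and exports collagen were also mostly higher with TGF-β. Of this list, 23 of the 25 genes tested were higher with TGF-β (92%), 2 were lower (8%) and 0 were not called, at a median log2 fold change of 0.87. Plod2, the lysyl hydroxylase that sets the type of collagen crosslink, had 1198, 1245 and 1065 CPM in the TGF-β libraries, against 158, 189 and 180.1 CPM in the PDGF-BB libraries (log2 fold change 2.73 ± 0.063). The prolyl hydroxylase genes P4ha1 (log2 fold change 1.48), P4ha3 (2.11) and P3h1 (1.42), the secretory transcription factor gene Creb3l2 (2.44) and the vesicle coat gene Sec23a (1.33) were called higher. The 2 lower genes were Pcolce, a procollagen proteinase enhancer (log2 fold change -0.44), and Adamts14, a procollagen peptidase (-1.60). Folding genes of the endoplasmic reticulum formed a further group, and 21 of 23 were higher and 0 lower with TGF-β, at a median log2 fold change of 0.56. Herpud1, of protein degradation at this membrane, averaged 56.4 ± 0.601 CPM with TGF-β and 24.7 ± 0.942 CPM with PDGF-BB (log2 fold change 1.19), Dnajc3 307 CPM with TGF-β and 146 CPM with PDGF-BB (1.07) and Xbp1, a transcription factor of the unfolded protein response, 122 CPM with TGF-β and 66.8 CPM with PDGF-BB (0.87). These differences were small in size, and Herpud1 and Dnajc3 were the only genes of the folding list to reach 2-fold.

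Proteoglycans and the enzymes that build their chains were mostly higher with TGF-β. Of them 22 of the 33 genes tested were higher with TGF-β (66.7%), 4 were lower (12.1%) and 7 were not called, at a median log2 fold change of 0.67. The chondroitin sulfate enzymes Chst3 (log2 fold change 2.99), Chsy3 (2.88), Chst11 (1.88) and Chsy1 (1.71) were called higher, beside their substrate aggrecan. Chsy1 averaged 117 ± 6.48 CPM with TGF-β and 35.7 ± 0.617 CPM with PDGF-BB. Fmod, fibromodulin, which binds collagen fibrils, averaged 117 ± 7.54 CPM with TGF-β and 28.5 ± 1.16 CPM with PDGF-BB (log2 fold change 2.03). The syndecans Sdc1 (log2 fold change -0.77) and Sdc4 (-0.72) and the small proteoglycan gene Dcn (-0.70) were lower. Of the matricellular proteins, which bind matrix and signal to cells, 13 of 20 were higher and 5 lower with TGF-β, at a median log2 fold change of 0.93. Ccn5 averaged 1217 ± 86.2 CPM with TGF-β and 101 ± 6.14 CPM with PDGF-BB (log2 fold change 3.59), Ccn4 499 ± 19.3 CPM with TGF-β and 43.5 ± 3.2 CPM with PDGF-BB (3.52) and Thbs1, thrombospondin 1, a protein that can release active TGF-β, 8717 CPM with TGF-β and 2245 CPM with PDGF-BB (1.96). Tnxb, tenascin X, at 6.42 CPM with TGF-β and 27.3 CPM with PDGF-BB (log2 fold change -2.09) and Npnt, nephronectin, at 141 CPM with TGF-β and 401 CPM with PDGF-BB (-1.50) were lower with TGF-β, as was the adhesion protein gene Tgfbi (-2.39).

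Matrix proteases differed in both directions, and in their list 12 of 25 were higher and 11 lower with TGF-β, at a median log2 fold change of 0.12. Of the 12 MMP genes tested, 6 were higher and 6 lower with TGF-β. Beside the stromelysin gene Mmp3, the collagenase 3 gene Mmp13 was lower. Mmp13 had 0.116, 0.645 and 0.347 CPM in the TGF-β libraries, against 9.9, 8.65 and 6.66 CPM in the PDGF-BB libraries (log2 fold change -4.45 ± 0.28). Mmp15 (log2 fold change -1.39) and Mmp19 (-0.76) were lower too. Mmp2, gelatinase A, at 422 CPM with TGF-β and 210.2 CPM with PDGF-BB (log2 fold change 1.0) and Mmp16 (1.12), a membrane protease that activates it, were higher, as were Adamts6 (3.09), Adamts10 (2.24) and Adamts12 (2.30). Of the ADAMTS genes 5 were higher and 3 lower, the lower ones being Adamts1 (log2 fold change -0.16), Adamts9 at 1.44 CPM with TGF-β and 5.97 CPM with PDGF-BB (-2.04) and Adamts15 (-3.52), which stayed under 1 CPM on average with either factor. The inhibitors also divided, with Timp3 at 2666 ± 159.99 CPM with TGF-β and 1183 ± 50.5 CPM with PDGF-BB (log2 fold change 1.17) and Timp1 at 388 ± 30.3 CPM with TGF-β and 638 ± 10.5 CPM with PDGF-BB (-0.72). Both plasminogen activator genes were lower: Plat, tissue plasminogen activator, had 10.97, 10.9 and 10.2 CPM with TGF-β and 125, 136 and 132 CPM with PDGF-BB (log2 fold change -3.61 ± 0.06), and Plau, urokinase, averaged 22.3 ± 1.9 CPM with TGF-β and 100.4 ± 2.23 CPM with PDGF-BB (-2.17). In the plasminogen and serpin list 4 of 12 were higher and 7 lower with TGF-β, at a median log2 fold change of -0.36.

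The promoters of Mmp3 and Mmp13 are shown because both hold an AP-1 type site, TGANTCA, in capitals, just before the start. AP-1 is a dimer of FOS and JUN family factors, and its site in interstitial collagenase and stromelysin promoters is a textbook ERK-responsive element. Mmp3 lies at chr9:7445702-7445821 and Mmp13 at chr9:7272394-7272513, both on the plus strand of GRCm38.p6.
Mmp3: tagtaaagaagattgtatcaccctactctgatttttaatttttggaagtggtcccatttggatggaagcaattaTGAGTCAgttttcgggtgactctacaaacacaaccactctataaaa
Mmp13: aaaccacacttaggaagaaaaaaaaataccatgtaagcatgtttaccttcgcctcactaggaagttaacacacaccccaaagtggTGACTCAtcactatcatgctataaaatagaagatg
TGANTCA, which reads the same on both strands, lay in 6.49% of all tested genes' windows. It lay in 9.77% of the 727 windows of genes at least 2-fold higher with TGF-β and in 11.8% of the 925 windows of genes at least 2-fold lower. Among the listed proteases and inhibitors with a window it lay in 3 of 14, Mmp3, Mmp10 and Mmp13.

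Integrins, the receptors that hold cells to matrix, were more often higher than lower with TGF-β. Of them 10 of the 18 genes tested were higher with TGF-β (55.6%), 5 were lower (27.8%) and 3 were not called, at a median log2 fold change of 0.69. Itga11, a collagen-binding chain, had 185, 192 and 187 CPM in the TGF-β libraries, against 14.8, 15.3 and 14.7 CPM in the PDGF-BB libraries (log2 fold change 3.65 ± 0.065). Itga4 averaged 221 ± 31 CPM with TGF-β and 23.3 ± 1.44 CPM with PDGF-BB (log2 fold change 3.24). Itgav, the chain that the study targeted, had 548, 553 and 472 CPM with TGF-β and 307, 336 and 319 CPM with PDGF-BB, a difference of log2 fold change 0.71 ± 0.072 without overlap. Among its partners, Itgb3 (149 ± 2.77 CPM with TGF-β and 36.7 ± 4.43 CPM with PDGF-BB, 2.02) and Itgb5 (772 ± 33.4 CPM with TGF-β and 218 ± 6.59 CPM with PDGF-BB, 1.83) had log2 fold changes of larger size. The collagen receptor chain Itga2 (log2 fold change 1.78) was also higher, and the laminin-binding chain Itga3 (-0.19) and the collagen-binding chain Itga10 (-0.19) were slightly lower. The β chain genes Itgb8 (log2 fold change -0.73), Itgb4 (-0.68) and Itgb2 (-1.89), all under 5 CPM on average, were lower too. Of these, Itgb8 is also a partner of Itgav, so the partners did not all run the same way. The call of Itga10 was lost without TGF-β replicate 1 or 2 or any PDGF-BB replicate (edgeR's adjusted p 0.0614 to 0.174). It was also lost without a filter on low counts and with the 6 libraries alone (edgeR's adjusted p 0.218 and 0.125). DESeq2 did not call Itga10 either (DESeq2's adjusted p 0.103). The Itgb2 call was lost without TGF-β replicate 1 or 2 or PDGF-BB replicate 1 (edgeR's adjusted p 0.124 to 0.303). The Itgb4 call was lost without TGF-β replicate 2 or PDGF-BB replicate 1 (edgeR's adjusted p 0.0582 and 0.131). Without PDGF-BB replicate 1, 2 integrin genes in place of 5 were called lower. In the list of YAP and focal adhesion genes, 27 of 36 were higher and 8 lower with TGF-β, at a median log2 fold change of 0.49. Nedd9, a docking protein of focal adhesions, averaged 312 ± 17.2 CPM with TGF-β and 36 ± 0.612 CPM with PDGF-BB (log2 fold change 3.12), and Fblim1 (1.41), Palld, palladin (1.12), Tln2 (1.11) and Tead4, a partner of YAP (1.25), were higher. Axl (log2 fold change -0.51), Tln1 (-0.48) and Yap1 (-0.22) were lower.

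Genes of the TGF-β pathway were mostly higher with TGF-β. Of the list, 26 of the 39 genes tested were higher with TGF-β (66.7%), 11 were lower (28.2%) and 2 were not called, at a median log2 fold change of 0.36. The lower share was close to the 29.0% of all genes tested. Of the 9 listed targets of the pathway, 6 were higher and 3 lower with TGF-β. The lowest of them was the adhesion protein gene Tgfbi (log2 fold change -2.39). Pmepa1, which sequesters receptor-activated SMADs, had 699.7, 685 and 739 CPM in the TGF-β libraries, against 85.5, 79.6 and 81.1 CPM in the PDGF-BB libraries (log2 fold change 3.11 ± 0.052), and Skil, the SMAD corepressor SnoN, had 208, 209 and 175 CPM with TGF-β and 21.1, 26.8 and 25.6 CPM with PDGF-BB (3.01 ± 0.079). All TGF-β libraries lay well above all PDGF-BB libraries for both. Fstl3, an activin-binding protein, averaged 201 ± 13.3 CPM with TGF-β and 30.3 ± 1.94 CPM with PDGF-BB (log2 fold change 2.73), Nox4, an oxidase known as a TGF-β target, 302 ± 19.1 CPM with TGF-β and 43.4 ± 3.71 CPM with PDGF-BB (2.80), and Tspan2, a tetraspanin, 209.7 CPM with TGF-β and 50.6 CPM with PDGF-BB (2.05). Among receptors, Tgfbr1 had 107, 103 and 94.2 CPM with TGF-β and 57.7, 62.1 and 61.4 CPM with PDGF-BB (log2 fold change 0.75 ± 0.056), whereas Tgfbr2 had 111, 123 and 106 CPM with TGF-β and 179, 196 and 183 CPM with PDGF-BB (-0.72 ± 0.053), so the type I and type II receptor transcripts differed in opposite directions. The coreceptor gene Tgfbr3 averaged 6.94 CPM with TGF-β and 28.2 CPM with PDGF-BB (log2 fold change -2.01). Smad3, the transcription factor that carries the signal, had 40.8, 40.5 and 45.4 CPM with TGF-β and 109, 121 and 125 CPM with PDGF-BB (log2 fold change -1.48 ± 0.053). Smad2 (log2 fold change 0.11) and Smad4 (0.04) were not called.

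In the BMP branch 12 of 25 were higher and 6 lower with TGF-β, at a median log2 fold change of 0.09. The ligands Bmp4 at 173 CPM with TGF-β and 68.2 CPM with PDGF-BB (log2 fold change 1.35), Bmp6 (2.54) and Gdf6 (1.95) were higher with TGF-β. Among the antagonists, Grem1, gremlin, had 163, 160.5 and 148 CPM in the TGF-β libraries, against 986, 1068 and 1032 CPM in the PDGF-BB libraries (log2 fold change -2.71 ± 0.046), and no TGF-β library came near a PDGF-BB library. Id1 (log2 fold change -0.58), Id2 (-0.56) and Id4 (-0.43), inhibitors of helix-loop-helix factors and classic BMP targets, were lower, and Smad6, another BMP target, was higher (0.99).

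The genes of the PDGF system were higher with TGF-β rather than with PDGF-BB. Pdgfrb, the receptor for PDGF-BB, had 709, 703 and 692 CPM in the TGF-β libraries, against 298, 318 and 293 CPM in the PDGF-BB libraries (log2 fold change 1.21 ± 0.037). Pdgfra had 6.56, 7.58 and 6.83 CPM with TGF-β and 6.26, 8.6 and 6.89 CPM with PDGF-BB. Its libraries overlapped and it was not called (log2 fold change -0.05 ± 0.12, adjusted p = 0.749 by edgeR's quasi-likelihood test). The ligand genes Pdgfa (81.1 ± 4.65 CPM with TGF-β and 29.7 ± 2.36 CPM with PDGF-BB, log2 fold change 1.45), Pdgfb (12.1 ± 0.883 CPM with TGF-β and 3.5 ± 0.807 CPM with PDGF-BB, 1.79), Pdgfc (1.99) and Pdgfd (0.32) and the receptor-like gene Pdgfrl (3.59) were all called higher, so that 6 of 7 genes were higher and 0 lower.

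Feedback genes and targets of ERK were mostly lower with TGF-β. Of them 7 of the 31 genes tested were higher with TGF-β (22.6%), 20 were lower (64.5%) and 4 were not called, at a median log2 fold change of -0.49. Dusp6, the phosphatase that inactivates ERK and is induced by it, had 15.03, 14.6 and 12.9 CPM in the TGF-β libraries, against 65.1, 63.9 and 63.1 CPM in the PDGF-BB libraries (log2 fold change -2.18 ± 0.073). Spry2, a Sprouty inhibitor of receptor signalling, had 12.1, 14.1 and 12.4 CPM with TGF-β and 47.6, 47.5 and 47.2 CPM with PDGF-BB (log2 fold change -1.88 ± 0.062). Hmga1, a chromatin protein of growing cells, had 39.8, 37.6 and 38.9 CPM with TGF-β and 455, 421 and 419.7 CPM with PDGF-BB, an 11.1-fold lower level with TGF-β (log2 fold change -3.48 ± 0.054). Ccnd1, cyclin D1, which starts the cell cycle in response to growth factors, had 873, 852 and 819.95 CPM with TGF-β and 3668, 3906 and 3719 CPM with PDGF-BB (log2 fold change -2.15 ± 0.037). For none of these 4 genes did the treatments overlap. Spry1, a relative of Spry2, was higher with TGF-β (24.9 CPM with TGF-β and 12.7 CPM with PDGF-BB, log2 fold change 0.97), as was the EGF family ligand gene Hbegf (128 CPM with TGF-β and 57.5 CPM with PDGF-BB, 1.16). Among immediate early factors 5 of 18 were higher and 10 lower with TGF-β, at a median log2 fold change of -0.51. Egr1, a zinc finger factor induced within minutes of growth factor stimulation, had 6.85, 9.35 and 7.64 CPM in the TGF-β libraries, against 55.3, 53.5 and 49.9 CPM in the PDGF-BB libraries (log2 fold change -2.73 ± 0.094). Fosl1, the AP-1 subunit FRA1, averaged 4.28 ± 0.593 CPM with TGF-β and 20.2 ± 2.22 CPM with PDGF-BB (log2 fold change -2.23), Nr4a1 1.73 CPM with TGF-β and 9.84 CPM with PDGF-BB (-2.50) and Jun 25.9 CPM with TGF-β and 43.6 CPM with PDGF-BB (-0.75). Fosl2, FRA2, was higher with TGF-β at 163 CPM with TGF-β and 111 CPM with PDGF-BB (log2 fold change 0.56), and Fos was not called (0.18).

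Cell cycle genes were lower with TGF-β almost throughout. Of the replication and G1/S list, 1 of the 37 genes tested was higher with TGF-β (2.7%), 33 were lower (89.2%) and 3 were not called, at a median log2 fold change of -0.90, and of the G2/M list 0 of the 32 genes tested were higher with TGF-β, 32 were lower (100%) and 0 were not called, at a median log2 fold change of -0.99. The 32 G2/M genes had log2 fold changes between -1.46 and -0.33. Cdc20, the activator of the anaphase-promoting complex, had 15.7, 15.6 and 15.2 CPM in the TGF-β libraries, against 41.8, 41.8 and 44.7 CPM in the PDGF-BB libraries (log2 fold change -1.46 ± 0.074). Mki67, the proliferation antigen Ki-67, had 61.5, 63.98 and 57.4 CPM with TGF-β and 139.9, 147 and 141 CPM with PDGF-BB (log2 fold change -1.22 ± 0.07), and Ccnb2, cyclin B2, had 8.94, 10.1 and 9.43 CPM with TGF-β and 21.8, 26.3 and 25.3 CPM with PDGF-BB (-1.36 ± 0.10). In each of the 3 every TGF-β library lay below every PDGF-BB library. Replication genes included the helicase subunits Mcm5 (19.5 ± 0.589 CPM with TGF-β and 49.3 ± 1.26 CPM with PDGF-BB, log2 fold change -1.33) and Mcm7 (32.5 ± 1.99 CPM with TGF-β and 83.6 ± 4.39 CPM with PDGF-BB, -1.36), the ligase gene Lig1 (-1.42) and Uhrf1, which copies DNA methylation (-1.42). Ccnd2, cyclin D2, averaged 1383 ± 63.9 CPM with TGF-β and 3543 ± 232 CPM with PDGF-BB (log2 fold change -1.36). The 1 higher gene was Cdkn2b, the cyclin-dependent kinase inhibitor p15 and a known TGF-β target, at 61.9 CPM with TGF-β and 52.9 CPM with PDGF-BB (log2 fold change 0.23). The inhibitor genes Cdkn1a (p21, 302 CPM with TGF-β and 344 CPM with PDGF-BB, log2 fold change -0.19) and Cdkn1c (p57, 0.792 CPM with TGF-β and 2.13 CPM with PDGF-BB, -1.43) are in the same list and were lower with TGF-β.

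Many mitotic gene promoters share a pair of elements, the CCAAT box bound by NF-Y and the CHR, TTTGAA, bound by the DREAM and MuvB complexes. Both were searched on both strands. TTTGAA lay in 21 of the 27 G2/M genes with a window (77.8%), against 14.8% of all tested genes, 17.9% of the 28 replication and G1/S genes and 17.5% of the genes at least 2-fold lower with TGF-β. CCAAT lay in 77.8% of the G2/M windows and 43.0% of all, and both lay in 66.7% of the G2/M windows and 7.35% of all. The windows of Cdc20 (chr4:118437344-118437463) and Ccnb2 (chr9:70421555-70421674), both on the minus strand of GRCm38.p6 and read 5′ to 3′ towards the start, are shown with the matches in capitals. The Cdc20 stretch holds both elements and the Ccnb2 stretch CCAAT alone.
Cdc20: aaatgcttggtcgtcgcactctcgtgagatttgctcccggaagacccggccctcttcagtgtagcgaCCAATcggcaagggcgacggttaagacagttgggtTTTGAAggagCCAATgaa
Ccnb2: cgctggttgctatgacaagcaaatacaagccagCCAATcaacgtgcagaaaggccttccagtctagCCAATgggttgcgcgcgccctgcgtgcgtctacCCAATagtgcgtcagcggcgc
In Ccnb2 the 3 CCAAT boxes begin at positions -87, -54 and -21 from the start. The mitotic genes were listed for their function and not for these letters.

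Amino acid supply genes controlled by ATF4, the transcription factor that answers amino acid shortage, were more often higher than lower with TGF-β. Of them 17 of the 29 genes tested were higher with TGF-β (58.6%), 8 were lower (27.6%) and 4 were not called, at a median log2 fold change of 0.26. Asns, asparagine synthetase, had 122, 118 and 122 CPM in the TGF-β libraries, against 44.8, 41.1 and 41.8 CPM in the PDGF-BB libraries (log2 fold change 1.5 ± 0.055). Aldh1l2, of mitochondrial folate metabolism, had 83.3, 85.1 and 68.5 CPM with TGF-β and 10.2, 11.1 and 8.05 CPM with PDGF-BB (log2 fold change 3.02 ± 0.11), and Pycr1, which makes proline, the residue abundant in collagen, averaged 24.6 ± 1.81 CPM with TGF-β and 6.38 ± 0.349 CPM with PDGF-BB (1.94). The treatments did not overlap in any of the 3. Trib3 (log2 fold change 1.74), the neutral amino acid transporter gene Slc1a4 (1.60) and Mthfd2 (1.46) were higher as well. Slc7a11, the cystine transporter (log2 fold change -1.23), Sesn2 (-0.80), Psat1 of serine synthesis (-0.60) and Ddit3, the stress factor CHOP (-0.54), were lower. The motif TGATGNAAN, a form of the site at which ATF4 binds with a partner, was searched on both strands. It lay in 7 of the 25 windows of this list (28.0%) and in 2.78% of all, and the 7 were Asns, Chac1, Pycr1, Slc1a4, Slc7a11, Trib3 and Vldlr. In Slc7a11 and Vldlr (log2 fold change -0.41) the level was lower with TGF-β, so the letters went with both directions. The Asns stretch at chr6:7693210-7693329 on the minus strand is shown with its match in capitals.
Asns: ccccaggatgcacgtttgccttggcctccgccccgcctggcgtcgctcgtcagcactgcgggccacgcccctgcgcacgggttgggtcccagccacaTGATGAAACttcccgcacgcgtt

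In energy and detoxification metabolism, glycolytic and detoxification genes were more often lower than higher with TGF-β. In the glycolysis and hypoxia list 4 of 24 were higher and 15 lower with TGF-β, at a median log2 fold change of -0.32. Tpi1, triosephosphate isomerase, averaged 220.2 ± 18.7 CPM with TGF-β and 464 ± 40.4 CPM with PDGF-BB (log2 fold change -1.07) and Pkm, pyruvate kinase, 1007 ± 77.6 CPM with TGF-β and 1781 ± 127 CPM with PDGF-BB (-0.82). Adm, the vasodilator peptide adrenomedullin, averaged 8.55 ± 0.736 CPM with TGF-β and 55.9 ± 2.68 CPM with PDGF-BB (log2 fold change -2.71), and Pfkfb3, an activator of glycolysis, was higher with TGF-β (1.17). For cholesterol and fatty acid synthesis 10 of 30 were higher and 11 lower with TGF-β, at a median log2 fold change of -0.01, with no clear direction. The sterol exporter gene Abca1 was lower (log2 fold change -0.84). For detoxification 4 of 29 were higher and 19 lower with TGF-β, at a median log2 fold change of -0.57. Selenbp1, selenium-binding protein 1, averaged 1.8 ± 0.296 CPM with TGF-β and 22.96 ± 2.01 CPM with PDGF-BB (log2 fold change -3.66), Gstm1, a glutathione transferase, 16.4 ± 0.56 CPM with TGF-β and 63.1 ± 2.77 CPM with PDGF-BB (-1.94) and Hmox1, heme oxygenase 1, 66.8 ± 1.68 CPM with TGF-β and 169 ± 15.3 CPM with PDGF-BB (-1.34). Nqo1, a quinone reductase and NRF2 target like Hmox1, ran the other way at 83.6 ± 7.74 CPM with TGF-β and 27.97 ± 1.93 CPM with PDGF-BB (log2 fold change 1.58).

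Among chemokines and cytokines 8 of 25 were higher and 10 lower with TGF-β, at a median log2 fold change of -0.79. These shares, 32.0% higher and 40.0% lower, stand against 28.0% and 29.0% of all genes tested, so the counts do not set the list far apart. Il6, interleukin 6, had 70.9, 70.4 and 69.8 CPM in the TGF-β libraries, against 3.33, 4.22 and 3.88 CPM in the PDGF-BB libraries (log2 fold change 4.2 ± 0.11). Every TGF-β library stood far above every PDGF-BB library. Il11, a relative of Il6 known for fibrosis, averaged 5.79 ± 0.42 CPM with TGF-β and 0.97 ± 0.0603 CPM with PDGF-BB (log2 fold change 2.57), and Cxcl12 3712 ± 76.03 CPM with TGF-β and 2318 ± 27.4 CPM with PDGF-BB (0.68). The monocyte chemokine genes were lower, with Ccl2 at 10.3 ± 1.36 CPM with TGF-β and 44.5 ± 2.29 CPM with PDGF-BB (log2 fold change -2.11) and Ccl7 at 1.49 ± 0.362 CPM with TGF-β and 8.39 ± 1.32 CPM with PDGF-BB (-2.49). In the prostaglandin and NF-κB list 4 of 18 were higher and 9 lower with TGF-β, at a median log2 fold change of -0.19. The cyclooxygenase genes diverged, with Ptgs2 at 344 ± 24.2 CPM with TGF-β and 122 ± 5.67 CPM with PDGF-BB (log2 fold change 1.5) and Ptgs1 at 32.1 ± 1.92 CPM with TGF-β and 81.4 ± 5.17 CPM with PDGF-BB (-1.34). Of the complement genes 5 of 11 were higher and 3 lower with TGF-β, at a median log2 fold change of 0.16, with Clu, clusterin, higher (1.15). Interferon response genes had a median of -0.69, and 18 of 38 were called lower and 1 higher, but they varied between replicates. Ifit1 had 7.48, 6.4 and 9.49 CPM with TGF-β and 15.3, 15.03 and 25.4 CPM with PDGF-BB, and its call (log2 fold change -1.26, adjusted p = 0.0201 by edgeR's quasi-likelihood test) was lost without TGF-β replicate 1 or 2 or PDGF-BB replicate 3 (adjusted p 0.0552, 0.0734 and 0.113). Without TGF-β replicate 1, 11 interferon genes in place of 18 were called lower.

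Genes of the insulin-like growth factor axis differed in both directions. Igf1, the ligand, had 238, 245 and 235 CPM in the TGF-β libraries, against 9.49, 10.96 and 10.1 CPM in the PDGF-BB libraries (log2 fold change 4.55 ± 0.076). Pappa, a protease that frees the ligand by cutting binding proteins, averaged 124 ± 17.6 CPM with TGF-β and 19.6 ± 3.22 CPM with PDGF-BB (log2 fold change 2.67), and Igfbp2 1857 ± 202 CPM with TGF-β and 431 ± 21.9 CPM with PDGF-BB (2.11). The binding protein genes Igfbp3 (281 ± 15.97 CPM with TGF-β and 759 ± 25.8 CPM with PDGF-BB, log2 fold change -1.44) and Igfbp4 (8.07 ± 1.13 CPM with TGF-β and 41.4 ± 4.42 CPM with PDGF-BB, -2.36) were lower with TGF-β. Igfbp4 is the main substrate of the protease that Pappa encodes. Over the axis 10 of 16 were higher and 5 lower with TGF-β, at a median log2 fold change of 0.43.

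Among other growth factors 18 of 41 were higher and 18 lower with TGF-β, at a median log2 fold change of -0.14, and the median turned to 0.03 without TGF-β replicate 1 and to 0.01 without PDGF-BB replicate 3. Fgf9 averaged 9.51 ± 0.946 CPM with TGF-β and 0.157 ± 0.184 CPM with PDGF-BB (log2 fold change 5.80), the guidance ligand genes Slit2 452 ± 48.5 CPM with TGF-β and 65.4 ± 6.41 CPM with PDGF-BB (2.79) and Sema3d 168 CPM with TGF-β and 27.7 CPM with PDGF-BB (2.60), and the EGF family gene Nrg1 149.9 CPM with TGF-β and 30.7 CPM with PDGF-BB (2.29). Angpt2, the angiopoietin that destabilises vessels, averaged 15.03 ± 1.26 CPM with TGF-β and 141 ± 1.36 CPM with PDGF-BB (log2 fold change -3.23) and Vegfd, a lymphatic growth factor, 86.1 ± 3.65 CPM with TGF-β and 280.02 ± 13.4 CPM with PDGF-BB (-1.70), and both were lower with TGF-β. Flt1, a receptor of the vascular endothelial growth factor family, was lower as well (log2 fold change -1.73).

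Those genes of cartilage and bone that could be tested were mostly higher with TGF-β. Of the 26 listed, 19 had enough counts, and Sp7, Ibsp, Bglap, Alpl, Chad, Cilp and Cytl1 did not. Acan, Col11a1, Col2a1 and Comp also belong to the proteoglycan, collagen or matricellular lists. Of the osteochondrogenic list, 14 of the 19 genes tested were higher with TGF-β (73.7%), 2 were lower (10.5%) and 3 were not called, at a median log2 fold change of 1.14. The largest differences were in matrix genes, Acan, Sost, Col11a1 and Col2a1, and in Comp, cartilage oligomeric matrix protein, at 31.1 ± 2.51 CPM with TGF-β and 4.22 ± 1.35 CPM with PDGF-BB (log2 fold change 2.89). Sox6, a chondrocyte factor, averaged 17.4 ± 1.55 CPM with TGF-β and 5.23 ± 1.16 CPM with PDGF-BB (log2 fold change 1.74), and Sox9, the master factor of cartilage, named after its value was seen, 86.1 ± 4.2 CPM with TGF-β and 45.2 ± 0.366 CPM with PDGF-BB (0.93). Runx2, the master factor of bone, was not called (16.3 CPM with TGF-β and 17.2 CPM with PDGF-BB, log2 fold change -0.08). Phospho1, a mineralisation phosphatase at 2.74 CPM with TGF-β and 6.64 CPM with PDGF-BB (log2 fold change -1.27), and Matn2 (-0.85) were lower.

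Genes of vascular tone differed in both directions. Over channels, calcium handling and vasoactive receptors 23 of 50 were higher and 16 lower with TGF-β, at a median log2 fold change of 0.22. Rgs5, a relative of Rgs4 and a pericyte marker, had 822, 832 and 776 CPM in the TGF-β libraries, against 62.5, 72.8 and 74.1 CPM in the PDGF-BB libraries (log2 fold change 3.54 ± 0.059). The calcium channel genes Cacna1c (10.5 ± 1.28 CPM with TGF-β and 2.95 ± 0.717 CPM with PDGF-BB, log2 fold change 1.83) and Cacna1g (1.85) and the calcium pump gene Atp2b4 (2.17) were higher, as was Npr3, the clearance receptor for natriuretic peptides (142 ± 3.32 CPM with TGF-β and 38.2 ± 2.34 CPM with PDGF-BB, 1.89). The sphingosine phosphate receptor genes S1pr1 (log2 fold change -1.43) and S1pr3 (1.81 ± 0.188 CPM with TGF-β and 20.2 ± 1.34 CPM with PDGF-BB, -3.48) and the prostaglandin receptor gene Ptger4 (-3.22) were lower, with Gucy1a1, a subunit of the nitric oxide receptor (3.65 ± 0.773 CPM with TGF-β and 9.47 ± 1.03 CPM with PDGF-BB, -1.38). In Notch and WNT signalling 18 of 36 were higher and 9 lower with TGF-β, at a median log2 fold change of 0.28. Jag1, a Notch ligand, averaged 199 ± 15.98 CPM with TGF-β and 82.1 ± 3.6 CPM with PDGF-BB (log2 fold change 1.28), and Wnt5a 85.1 ± 6.89 CPM with TGF-β and 10.8 ± 0.997 CPM with PDGF-BB (2.97). Notch3, the Notch receptor of smooth muscle, was lower at 16.4 ± 1.6 CPM with TGF-β and 40.4 ± 2.41 CPM with PDGF-BB (log2 fold change -1.30), as were the Dickkopf family gene Dkk3 (-1.42) and Sfrp2 (-1.24), a secreted modulator of WNT signals. Among cell contact genes 9 of 19 were higher and 7 lower with TGF-β, at a median log2 fold change of 0.17, with Cdh10 at 23.6 ± 3.14 CPM with TGF-β and 0.455 ± 0.146 CPM with PDGF-BB (5.66) and the connexin genes Gja4 (3.53) and Gja5 (-2.12) in opposite directions.

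Transcript usage, the share of a gene's counts assigned to each of its transcripts, was tested with edgeR's diffSpliceDGE, with Simes p-values per gene, in 9306 genes with several transcripts. Of these 156 (1.68%) were called, and 25 of them had a transcript whose share differed by at least 20 percentage points. Without TGF-β replicate 1 the count was 93. Shares were estimated by the authors' software from short reads, so transcripts that overlap over most of their length can be confused.

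The smallest p among genes with such a difference was that of Tpm1, tropomyosin 1, whose protein lines the actin filament and comes in long and short forms. The short form Tpm1-211, with 8 exons and an alternative first exon, took 4.98, 4.75 and 5.17% of Tpm1 counts in the TGF-β libraries, against 29.2, 28.9 and 28.3% in the PDGF-BB libraries. The long forms Tpm1-216 (47.6 ± 1.9% with TGF-β and 34.8 ± 0.124% with PDGF-BB) and Tpm1-215 (32.1 ± 1.48% and 24 ± 0.916%) took more with TGF-β. The gene's adjusted p was 2.16e-19 by edgeR's usage test with Benjamini-Hochberg adjustment, and its total was 2.57-fold higher with TGF-β. The 3 coding exons that tell these transcripts apart are shown from GENCODE M21 (GRCm38, minus strand). They are the first coding exon of Tpm1-211 (chr9:67043578-67043709, 132 bases) and the mutually exclusive second exons of Tpm1-215 (chr9:67048124-67048249) and Tpm1-216 (chr9:67047786-67047911), 126 bases each.
Tpm1-211: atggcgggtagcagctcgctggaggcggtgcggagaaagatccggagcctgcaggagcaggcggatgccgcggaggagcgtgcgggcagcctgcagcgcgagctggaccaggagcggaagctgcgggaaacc
Tpm1-215: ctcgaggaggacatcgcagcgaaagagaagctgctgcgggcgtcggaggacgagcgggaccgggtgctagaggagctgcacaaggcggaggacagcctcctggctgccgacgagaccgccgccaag
Tpm1-216: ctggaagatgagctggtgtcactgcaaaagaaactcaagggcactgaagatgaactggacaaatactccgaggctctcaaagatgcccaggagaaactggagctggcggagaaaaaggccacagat

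Postn, periostin, a secreted matrix protein, was both higher with TGF-β (146 ± 12.7 CPM with TGF-β and 24.6 ± 3.49 CPM with PDGF-BB, log2 fold change 2.57 ± 0.089) and divided differently among transcripts that differ near the carboxyl end. The transcripts Postn-201 and Postn-203 each carry 1 cassette exon that Postn-204 lacks. Together they took 85.5, 86.9 and 85.6% of Postn counts with TGF-β, against 30.5, 24.5 and 32.8% with PDGF-BB. Postn-204, without either exon, took 5.85 ± 0.903% with TGF-β and 69.4 ± 3.62% with PDGF-BB, and the gene's adjusted p was 3.02e-10 by edgeR's usage test. The exons are those of Postn-201 (chr3:54385671-54385754, 84 bases) and Postn-203 (chr3:54380412-54380492, 81 bases), plus strand.
Postn-201: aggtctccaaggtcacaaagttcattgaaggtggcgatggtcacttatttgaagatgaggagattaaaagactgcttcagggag
Postn-203: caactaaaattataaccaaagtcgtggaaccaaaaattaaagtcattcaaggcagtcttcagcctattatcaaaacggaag

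**Figure D4:**
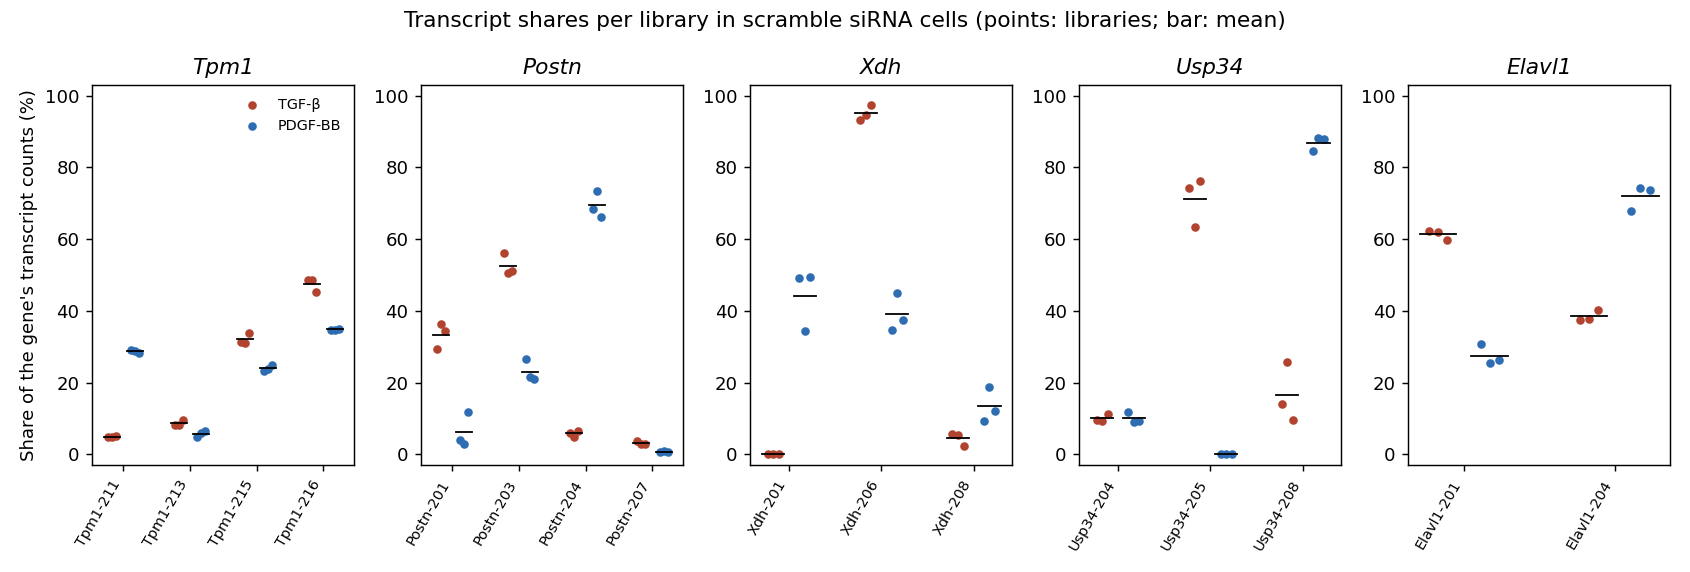
Share of a gene's transcript counts (percent) taken by each transcript with at least 3% in either treatment, per library (points, TGF-β left and PDGF-BB right) with the mean as a bar, for the 5 genes of the naming rule. Tpm1-211 holds 4.97% with TGF-β and 28.8% with PDGF-BB on average, and Postn-204 5.85% and 69.4%.

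The other genes that met the rule were Xdh, Usp34 and Elavl1. Xdh, xanthine dehydrogenase, had its full-length coding transcript Xdh-201 at 0 in all 3 TGF-β libraries and at 44.3 ± 8.62% with PDGF-BB, while the intron-retaining Xdh-206 took 95.2 ± 2.12% and 39.1 ± 5.22%. For Elavl1, the RNA-binding protein HuR, Elavl1-201 took 61.3 ± 1.42% with TGF-β and 27.5 ± 2.91% with PDGF-BB, and its coding sequence is the same length (978 bases) as that of Elavl1-204. For Usp34, a ubiquitin protease, Usp34-205 took 71.3 ± 6.83% with TGF-β and 0.0272 ± 0.0472% with PDGF-BB, and Usp34-208 took 16.5 ± 8.32% and 86.8 ± 2.01%. The annotated coding parts of Usp34-205 and Usp34-208 are 10804 and 10746 bases long. These 2 transcripts have 80 exons each, and Xdh-201 and Xdh-206 have 36 each, so reads may have been confused within each pair. Whether the shares reflect the RNA or the assignment of reads was not tested. The adjusted p-values by edgeR's usage test were 1.82e-15 for Xdh, 1.5e-06 for Usp34 and 3.98e-05 for Elavl1.

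Caldesmon and fibronectin were looked at after their values were seen. Cald1-205, the longest coding form (2304 bases, the length class of smooth muscle caldesmon), took 12 ± 0.151% of Cald1 counts with TGF-β and 7.3 ± 0.712% with PDGF-BB, and the short Cald1-204 held the largest share in both (73.9 ± 0.223% and 77.4 ± 0.556%). Fn1 transcripts that carry a 270-base coding exon (chromosome 1, 71603660 to 71603929), the size of the extra domain A exon, took 29.0 ± 0.373% of Fn1 counts with TGF-β and 41.7 ± 1.55% with PDGF-BB. A transcript with a retained intron held 25.1 ± 2.9% and 32.7 ± 4.13% of Fn1 counts, so these are not shares of coding RNA alone.

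Markers of other cell types were read in the same libraries. The 8 smooth muscle markers were all tested, 7 were higher and 1 lower, and their summed level was 7170.0 to 7820.0 CPM with TGF-β and 1100.0 to 1140.0 CPM with PDGF-BB, so markers of the labelled cell type were present in both. Of the lymphocyte markers, 0 of 6 passed the filter and Cd3e and Cd79a were at 0 in all 6 libraries. Likewise 0 of 5 erythroid markers passed, with Hba-a1 at 0. All 10 endothelial markers passed with sums of 123 to 139 CPM with TGF-β and 125 to 143 CPM with PDGF-BB, 1 was higher (Erg, 45.4 ± 1.71 CPM with TGF-β and 8.9 ± 1.73 CPM with PDGF-BB, log2 fold change 2.35) and 6 lower. Macrophage markers summed to 9.31 to 11 CPM with TGF-β and 24.3 to 26.0 CPM with PDGF-BB, 5 of 9 were tested and 4 were lower, led by Cd68 (1.21 CPM with TGF-β and 9.41 CPM with PDGF-BB, log2 fold change -2.96), and C1qa held 1 count over the TGF-β libraries and 0 over the PDGF-BB libraries. Mesothelial markers summed to 62.8 to 64.6 CPM with TGF-β and 195 to 218 CPM with PDGF-BB, 6 of 7 were tested, 1 was higher and 4 were lower, among them the keratin gene Krt19 (7.9 ± 0.312 CPM with TGF-β and 92.5 ± 13.3 CPM with PDGF-BB, log2 fold change -3.55). Adventitial fibroblast markers summed to 881 to 956 CPM with TGF-β and 965 to 1050.0 CPM with PDGF-BB, and of the 10 tested 3 were higher and 4 lower, with Cd34 at 27.3 ± 0.449 CPM with TGF-β and 128 ± 2.61 CPM with PDGF-BB (log2 fold change -2.23). The pericyte markers summed to 1150.0 to 1230.0 CPM with TGF-β and 226 to 243 CPM with PDGF-BB, but 3 were higher and 2 lower of the 5 tested of 6 (Higd1b was at 0). Of 6 adipocyte markers 2 were tested and 1 was lower (27.5 to 29.2 CPM with TGF-β and 28.9 to 29.9 CPM with PDGF-BB in sum), and Plin1, Cidec and Lep were at 0. Of 5 Schwann cell markers 3 were tested and 2 were higher (19.6 to 21.8 and 15.7 to 18 CPM), and of 6 cardiomyocyte markers 1 was tested and higher (11.7 to 12.5 and 7.59 to 9.61 CPM), with Myh6 at 0. The part of such cells in the matrix, chemokine and marker differences was not tested.

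The same contrast was available in cells given the Itgav siRNA, in 6 other libraries. There 8861 genes (56.0%) were called, and the difference between the contrasts, siRNA minus scramble, was called in 5196 genes (32.8%). The difference was positive in 2757 genes (17.4%) and negative in 2439 (15.4%). Eln had a log2 fold change of 5.79 ± 0.06 in siRNA cells and 4.44 ± 0.056 in scramble cells, a difference of 1.34 ± 0.07 (adjusted p = 7.93e-12 by edgeR's quasi-likelihood test). Tagln likewise had a larger log2 fold change in siRNA cells (3.78 ± 0.062) than in scramble cells (2.72 ± 0.058). Myh11 was the contrary case, with a log2 fold change of 0.59 ± 0.15 in siRNA cells and 1.99 ± 0.12 in scramble cells. Among positive differences the smallest p-values were those of Nes, nestin (log2 fold change -0.95 ± 0.043 in siRNA cells and -2.97 ± 0.046 in scramble cells), Ccn1, Ankrd1, Akap5 and Masp1. Among negative differences they were those of Pmp22, a myelin protein gene (log2 fold change -0.24 ± 0.04 in siRNA cells and 1.87 ± 0.04 in scramble cells), Efemp1, Tmt1a, Slc22a23 and Etv1. Etv1, an ETS factor downstream of ERK, differed in sign, with a log2 fold change of -1.93 ± 0.066 in siRNA cells and 0.23 ± 0.063 in scramble cells.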

How the data were processed

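RNA-seq of 18 libraries was used, of which the 6 described here carried 18339304 to 20689916 estimated counts. Per the submitters' processing notes, reads were handled with HISAT2 2.2.1 and StringTie 2.1.6 on mm10, with the role of each not stated, and no source used here gives the strand used for counting, so overlapping and antisense genes cannot be told apart. The authors deposited tables of estimated counts (expected counts) per gene and per transcript, of which 76.2% of the gene values above 0 were whole. They were rounded here for edgeR 4.0.16 in R 4.3.3. Genes passed filterByExpr at a count of 10, and 1 quasi-likelihood model with TMM factors (0.925 to 1.07) was fitted to all 18 libraries in 6 groups (12 residual degrees of freedom, biological coefficient of variation 6.01%), with Benjamini-Hochberg adjustment over 15832 genes. CPM were computed from library sizes scaled by TMM. Replicates of a group differed by more than counting noise (chi-square per degree of freedom 2.9 to 12.1), so none was merged. Of the gene identifiers 90.7% (99.23% of counts) were in GENCODE M21, the source of coordinates and exons. DESeq2 1.42.0, other filters and scalings, the replicate block, the 6 libraries alone, summed transcript counts and each library left out were alternatives.

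The members, gene lists, markers and motifs were chosen with earlier results of these data known. Named genes were the 10 largest differences each way without overlap and at 5 CPM or more, a panel of 18, up to 6 called members each way per list at 5 CPM or more, the 5 smallest p-values each way for the siRNA difference, and the 5 smallest for transcript usage with a 20-point difference. Outside that rule, Myl6, Myl9, Vcl, Sox9, Mmp10, Chac1, Vldlr, Cdkn1a, Cdkn1c, Col24a1, Myocd, Adamts1, Adamts15, Itgb2, Itgb4 and Itgb8 and the usage of Cald1 and Fn1 were named after values were seen. A few genes that the rule selects are not reported here. Ratios and intervals for low counts cover counting error only. The tests were tested on simulated counts. These held no errors in assigning reads to transcripts, so such errors were not covered.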

Additional observations from a re-analysis of the deposited data

Results flagged for a closer look

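The results below are those in which the TGF-β over PDGF-BB effect differed between Itgav siRNA and scramble cells by edgeR's quasi-likelihood test of the difference itself, with Benjamini-Hochberg adjustment over all genes. They numbered 5196 genes. Each value is the log2 fold change in siRNA cells minus that in scramble cells, from 3 libraries per group, and no explanation of it was tested. Single outlying libraries were not tested in groups of 3.

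Among the smooth muscle and matrix genes, the difference was 0.62 for Acta2, 1.06 for Tagln, 1.34 for Eln, 0.34 for Col1a1 and 0.57 for Lox, whose TGF-β over PDGF-BB effect was larger in siRNA cells. It was -1.40 for Myh11, the smooth muscle myosin gene, -0.90 for Klf4 and -0.47 for Itgav itself. Spp1 (0.95), Hmga1 (0.53) and Mki67 (0.54), lower with TGF-β in scramble cells, had positive differences. Dusp6 (-0.30), Pdgfra (-0.65) and Tgfbr1 (-0.68) had negative ones.

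Of the genes farthest apart between the growth factors, Rgs4 differed by -2.38, C1qtnf3 by 0.58 and Scara5 by -1.66. Of the genes with the smallest p-values for the difference, the positive ones were Nes (2.02), Ccn1 (1.46), Ankrd1 (1.66), Akap5 (2.41) and Masp1 (1.67). The negative ones were Pmp22 (-2.11), Efemp1 (-1.54), Tmt1a (-1.51), Slc22a23 (-2.47) and Etv1 (-2.16). Ccn1 and Ankrd1, both targets of YAP, had log2 fold changes of 3.31 ± 0.044 and 2.57 ± 0.05 in siRNA cells, against 1.85 ± 0.041 and 0.91 ± 0.046 in scramble cells. Both genes had lower mean CPM in siRNA than in scramble cells with either factor. With TGF-β, Ccn1 averaged 532 CPM in siRNA and 635 CPM in scramble cells, and with PDGF-BB 53.6 and 176 CPM. For Ankrd1 these means were 595 and 987 CPM with TGF-β and 100 and 525 CPM with PDGF-BB. Akap5 had a log2 fold change of 3.60 ± 0.084 in siRNA cells and 1.19 ± 0.069 in scramble cells, and Slc22a23 had -0.16 ± 0.072 in siRNA cells and 2.30 ± 0.072 in scramble cells.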

How the results depend on the processing

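Over the alternatives run, 7925 to 9129 genes were called against 9014, and leaving out 1 library gave 8068 to 8842. At 2-fold or more 1818 to 2685 were called against 2423. The siRNA difference gave 5082 to 5407 against 5196, and 4373 to 5530 with 1 library left out. Transcript usage moved by over 1.5 times: 93 to 177 genes with 1 library left out, against 156, with the 93 reached without TGF-β replicate 1. The cause was not tested. Deviations of same-numbered replicates had correlations of -0.045, 0.0669 and -0.0063, within the -0.101 to 0.0907 of differently numbered ones. With 3 libraries per group these correlations cannot show whether the libraries were paired. A replicate block gave 9129 genes called, 2405 at 2-fold or more, 5407 for the difference and 138 for usage. It changed the call of 1 of 382 named results (Itgb2, edgeR's adjusted p 0.0552). No named result reversed under any alternative, and each setting cost at most 8 named calls. Ppp1r14a became called without PDGF-BB replicate 1 and Tpm2 without TGF-β replicate 3. Interferon genes called lower numbered 28 without a filter on low counts and 11 without TGF-β replicate 1, against 18, and integrin genes called lower 2 without PDGF-BB replicate 1, against 5. The lowest depth, 18339304 counts, limits what can be said of genes under about 1 CPM.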
